A study of Mus musculus with 4 samples.

Results

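Mature olfactory sensory neurons detect odorants in the nasal epithelium. Their RNA was sequenced in 4 libraries from mice, and the transcripts were assigned to 28168 loci on the mouse genome build mm9. A locus here is a row of the authors' deposited table with an interval on a chromosome and, in most cases, a gene symbol. The loci described here carry no symbol, and their interval shares at least 1 base with that of a locus that does. They number 362, or 7.66% of the 4724 loci without a symbol, and they lie in 75 intervals together with 301 named loci. Strand was not read, and the members were found by position alone.

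All mice carried the reporter allele OMP-IRES-GFP+/-, and the sorted cells came from olfactory epithelium dissociated with papain. Both Nd1 libraries were Nd1+/- with OMP-IRES-tTA+/-, which places the activator tTA under the promoter of Omp, a gene of mature olfactory neurons. The control of replicate 1 was Nd1+/- with OMP-IRES-tTA-/-, and the control of replicate 2 was Nd1-/- with OMP-IRES-tTA+/-. The mice of replicate 1 were aged 212 days in both groups, and those of replicate 2 were aged 87 days. The series title gives the Nd1 mice as a line that expresses double-stranded RNA from its own genome, and the series text speaks of neurodegeneration. How many mice entered a library is not stated. The table gives a pooled value for each group of 2 libraries, in FPKM (fragments per kilobase of transcript, scaled to the total mapped), so no spread between libraries, no depth per library and no count of reads stand behind the values. A locus is said to have risen or fallen where the authors' own test with Cuffdiff gave a q-value under 0.05 for Nd1 against control.

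A transcript without a gene symbol can be a non-coding RNA, an unannotated exon or end of a known gene, a pseudogene, or a gene segment that an annotation lists without a name. Regions in which genes were duplicated in tandem, such as chemokine, trypsin and zinc finger clusters, hold many near-identical copies, and short fragments cannot always be assigned to a single copy. Antigen receptor loci hold long arrays of variable and joining segments that are joined by recombination in lymphocytes.

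All 2696 combinations of an unnamed and a named locus shared exactly the same interval, so none overlapped in part. Among the 24188 distinct intervals of the table, 0 overlapped another and 6 pairs touched. The table therefore gives the bounds of a bundle of loci, and where an unnamed locus lies inside it, in an exon, an intron or beside the named gene, is not given. The shortest of the 75 intervals, that of Rab7, was 797 bases long and the longest 3.18 Mb. The interval of a member had a median length of 166 kb, against 50 bases in the 4362 unnamed loci that share no interval with a named locus.

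The sequence of an unnamed locus could not be printed, because it needs a genome of build mm9, which was not used here. RefSeq (GRCm38.p6) promoters are shown instead for 3 named loci that share an interval with unnamed loci that rose, because they mark the start of the only named transcript or of a named transcript that rose as well. Each runs over the 250 bases before the start of the gene, on the gene's own strand, and capitals mark the GC box GGGCGG, searched on both strands. The Kcna3 window is chr3:107035912-107036161 on the plus strand, that of E330033B04Rik is chr15:96275276-96275525 on the minus strand, and that of Tmem9b is chr7:109752264-109752513 on the minus strand, all on GRCm38.p6.
Kcna3: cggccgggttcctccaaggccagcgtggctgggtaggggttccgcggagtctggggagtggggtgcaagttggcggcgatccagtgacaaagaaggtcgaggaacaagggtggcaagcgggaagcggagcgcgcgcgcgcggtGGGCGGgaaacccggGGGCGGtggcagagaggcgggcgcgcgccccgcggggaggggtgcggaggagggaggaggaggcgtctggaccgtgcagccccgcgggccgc
E330033B04Rik: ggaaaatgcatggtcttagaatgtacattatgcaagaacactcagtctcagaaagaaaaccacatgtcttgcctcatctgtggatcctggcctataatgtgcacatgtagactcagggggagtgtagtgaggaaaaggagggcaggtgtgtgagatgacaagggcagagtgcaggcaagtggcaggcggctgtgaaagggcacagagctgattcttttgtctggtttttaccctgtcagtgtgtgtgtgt
Tmem9b: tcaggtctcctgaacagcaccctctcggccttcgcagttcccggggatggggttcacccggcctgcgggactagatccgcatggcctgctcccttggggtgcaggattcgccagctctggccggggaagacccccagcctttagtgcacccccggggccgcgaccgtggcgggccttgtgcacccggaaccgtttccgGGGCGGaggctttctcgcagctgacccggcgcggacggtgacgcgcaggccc
The Kcna3 and Tmem9b windows were rich in G and C, at 74.4% and 70.4%, and held 2 and 1 GC boxes. The E330033B04Rik window was at 48.4% and held none. Of the 247 symbols in the intervals, 166 had a RefSeq promoter, with 208 windows in all, and 28.8% of these windows held a GC box, against 32.7% of all 32851 RefSeq windows. These matches describe letters in a window and are not binding sites.

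Members were crowded into few intervals. Of the 362, 275 (76.0%) lay in the 6 fullest intervals, while 59 of the 75 intervals held 1 unnamed locus. The interval of Cyp19a1, the aromatase that makes oestrogens, and of 1700104A03Rik (chr9:54013744-54117106) held 105 unnamed loci, all listed at 0 in both groups. The next fullest (chr14:53363924-54843439) held 64, together with 7 rows of A430107P09Rik, and 6 of the 64 were above 0. The interval of the prostaglandin receptor genes Ptger2 and Ptgdr (chr14:45470910-45626575) held 34, all listed at 0. Neighbouring intervals on chromosome 4 with genes of the chemokines Ccl19 and Ccl27 (chr4:41707316-42292530 and chr4:42416908-42859133) held 31 and 29. The interval of the trypsin genes (chr6:41005882-41498351) held 12, of which 1 was above 0.

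**Figure D1:**
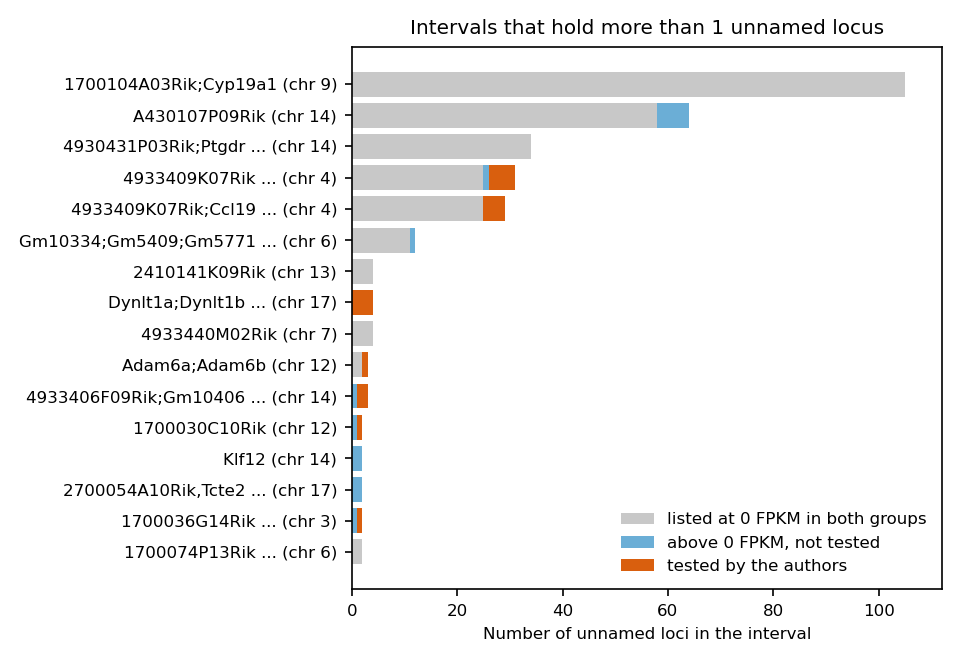
Number of unnamed loci (horizontal axis) in each of the 16 intervals that hold more than 1, labelled by the first named loci of the interval and its chromosome. Grey bars count loci listed at 0 FPKM in both groups, blue bars loci above 0 that were not tested, and orange bars loci the authors tested; the 3 fullest intervals hold 105, 64 and 34 loci and no tested one.

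Of the members, 280 (77.3%) were listed at 0 in both groups, close to the 80.6% of the unnamed loci away from named ones and far from the 15.5% of all named loci. The other 82 comprised 66 above 0 in both groups, 13 above 0 only in Nd1 and 3 above 0 only in control. The authors tested 48 of these, from 37 intervals, and left 34 untested, the highest of which reached 0.294 FPKM. A value of at least 1 FPKM in a group was reached by 34 members and at least 10 FPKM by 9. The summed FPKM of all members was 253 in control and 266 in Nd1, beside 2647 and 2821 for the named loci of the same intervals.

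In the 48 tested members, 6 rose (12.5%) and 0 fell at the authors' q-value under 0.05 from Cuffdiff. At the authors' unadjusted p under 0.05 there were 8, 6 higher and 2 lower in Nd1, and no other tool could be run on pooled values. Over all 14841 tested loci, 34.4% were called, 15.1% as higher and 19.2% as lower. The range of the means of the tested members held 12739 of the tested loci, too many to match the members for level. The share called there was 34.2%. It was 22.9% in the 454 tested unnamed loci away from named ones (16.7% higher and 6.17% lower) and 33.8% in the 157 tested named loci of the same intervals (17.2% higher and 16.6% lower). The share of members that rose was thus near the background for rises, and the fewer calls lay on the side of falls. Of the 6, 4 lie in intervals where a symbol stands on several rows, and 2 rose outside them, of 25 tested there. At q under 0.01, 3 rose. These shares are descriptions, and the differences between them were not tested.

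The median level of the tested members was 1.37 FPKM in control and 2.02 in Nd1, lower than that of the tested named loci around them (4.52 and 4.81) and of all tested loci (7.97 and 7.63). The median log2 ratio of Nd1 to control was 0.03 in the 43 members above 0 in both groups, with quartiles of -0.41 and 0.33, and 34 of the 43 lay within a 2-fold change. The same median was -0.06 in the named loci of the intervals and -0.07 in all tested loci.

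**Figure D2:**
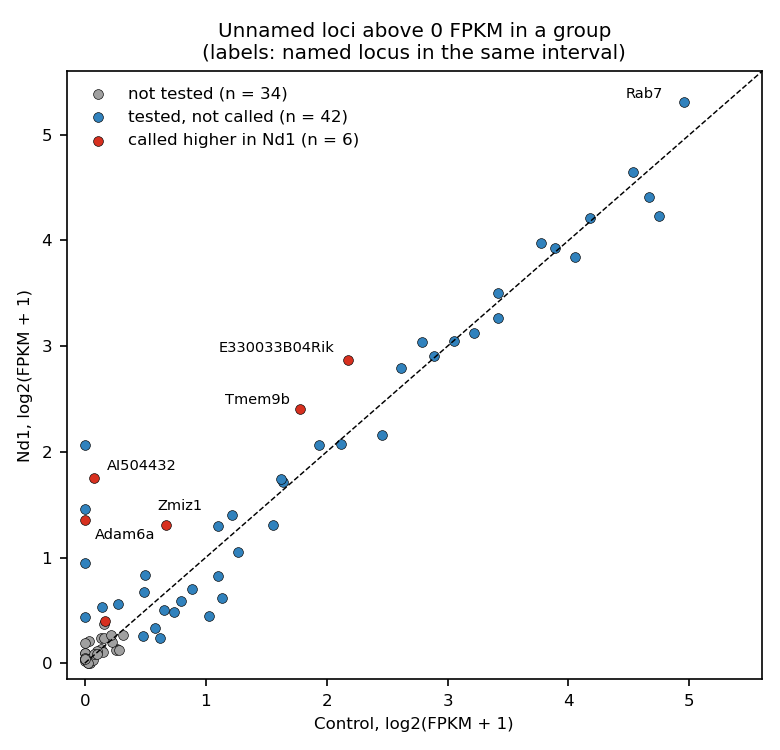
Level of each of the 82 unnamed loci above 0, in control (horizontal axis) and Nd1 (vertical axis), as log2(FPKM + 1); grey points were not tested, blue points were tested and not called, red points rose, and the dashed line marks equal levels. The 6 red points lie above the line, and the highest point is the locus in the Rab7 interval, at 30.0 FPKM in control and 38.7 in Nd1.

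The largest rise was that of XLOC_015781 (chr3:106737300-106901319, mm9), which shares its interval with Kcna3, the voltage-gated potassium channel Kv1.3, and with AI504432. The authors' deposited table lists it at 0.0546 FPKM for control mice and 2.36 FPKM for Nd1, a 43.2-fold difference (log2 fold change 5.43, Cuffdiff q = 3.01e-07). Kcna3 rose from 0.200 to 1.22 FPKM (q = 3.71e-07), and AI504432 rose from 0.410 to 1.31 FPKM (q = 1.34e-06). Another row of AI504432 was not tested, at 0.0815 and 0.242 FPKM. The unnamed locus was thus the lowest of the 4 in control and the highest in Nd1.

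The locus XLOC_008850 (chr15:95965250-96114039, mm9) rose from 3.53 to 6.29 FPKM, or 1.78-fold (log2 fold change 0.83, Cuffdiff q = 0.00101). It shares its interval with E330033B04Rik, which rose from 5.19 to 11.9 FPKM (q = 2.70e-12), and with 2610037D02Rik, which rose from 1.35 to 3.997 FPKM (q = 6.15e-07). Gm4371, the remaining named locus there, was not tested. All 3 tested loci of this interval moved in the same direction, and the unnamed one by the smallest fold.

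The unnamed locus in the interval of Tmem9b, which encodes a transmembrane protein of lysosomes, was called without its partner (chr7:116879350-116897361, mm9). It rose from 2.43 to 4.31 FPKM, 1.77-fold (Cuffdiff q = 0.0189). Tmem9b, the only named locus of the interval, had 24.5 FPKM in control and 20.2 in Nd1 and did not pass the test (q = 0.175). The unnamed locus stood at 15.1% of the level of Tmem9b over both groups.

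The interval of Zmiz1, a coactivator of transcription factors, spans chr14:26077011-26484195 (mm9). Its unnamed locus rose from 0.593 to 1.48 FPKM, 2.50-fold (Cuffdiff q = 0.0376). The main row of Zmiz1 had 155 and 136 FPKM, and the authors' test failed for it. A lower row of Zmiz1 had 1.49 and 2.12 FPKM and did not pass (q = 0.106), and 4931406H21Rik rose from 10.05 to 15.08 FPKM (q = 0.000506). The 4 named loci of this interval thus include 1 that rose.

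A member in a cluster of predicted zinc finger genes on chromosome 2 (chr2:175568460-176991149, mm9) rose from 0.121 to 0.321 FPKM, 2.66-fold (Cuffdiff q = 0.0286), at a level under 1 FPKM in both groups. Of the 22 named loci in that interval, 15 were tested, all 15 had the higher value in Nd1, and 3 rose. The highest of them, listed under Gm14288, Gm14405 and Gm8898, rose from 3.13 to 4.95 FPKM (q = 0.00218). These genes are near-identical copies, and several of their symbols stand on more than 1 row, so how fragments were divided among them is uncertain.

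The remaining called member lies in the interval of Adam6a and Adam6b, genes for sperm surface proteins, within chr12:114493110-117248164 (mm9). It was listed at 0 in control and at 1.55 FPKM in Nd1 (Cuffdiff q = 0.000386). No fold is given against a group at 0. Adam6a had 3.35 and 3.19 FPKM and did not pass the test (q = 0.928). Another row of Adam6a and the row of Adam6b were listed at 0 in both groups. In the RefSeq gene order of GRCm38, the genes between the neighbours Tmem121 and Zfp386 number 253, and 216 of them are antigen receptor segments, those of the antibody heavy chain.

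**Figure D3:**
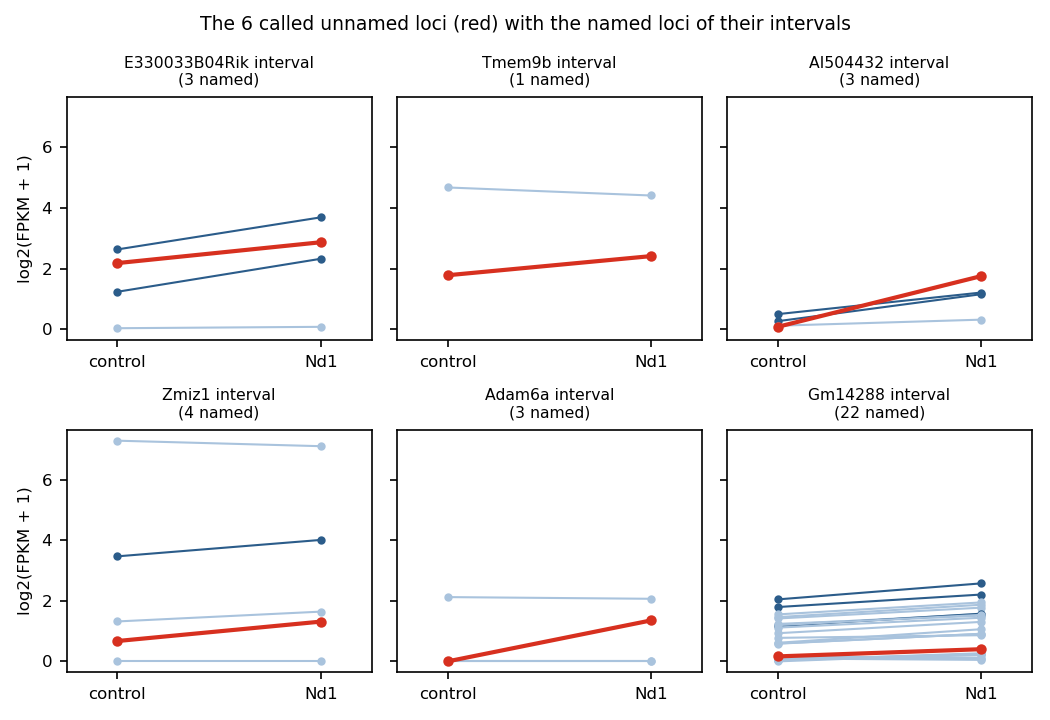
Level in control and Nd1, as log2(FPKM + 1), of the 6 unnamed loci that rose (red) and of the named loci of the same interval (dark blue where called, light blue where not called, not tested or failed), 1 panel per interval, titled by its highest named locus. In the AI504432 interval the red line starts lowest and ends highest, and in the Tmem9b and Adam6a intervals no named line is dark.

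For 5 of the 75 intervals, antigen receptor segments lie between the neighbouring genes in that order. Whether the segments lie inside the mm9 interval is not known, and the spans of 2 such intervals on chromosome 6 overlap on GRCm38. The 5 intervals hold 82 members, of which 8 were above 0 and 1 was tested, the locus beside Adam6a. The interval placed between Olfr1507 and Dad1, where 201 of the 218 RefSeq genes between these neighbours are receptor segments and 118 are variable segments of the T cell receptor, held 64 members. Of these, 5 were listed at 0 in control and above 0 in Nd1, and none exceeded 0.141 FPKM in either group. Lymphocyte markers were read beside these values. For T cells, 3 of 4 markers were in the table, with a summed level of 0.0127 FPKM in control and 0.0247 in Nd1, and Cd3g was at 0 in both. For B cells and plasma cells, whose list was added after the values were seen, 7 of 8 markers were in the table, summing to 1.03 and 0.611 FPKM, with 1 tested and none called. Among 11 further T and natural killer cell genes, added at the same point, the sum was 9.70 and 19.9 FPKM, of which Cd247, which was not called, gave 8.51 and 9.05. The value was higher in Nd1 in 4 of the 11, lower in 6 and at 0 in both groups in 1, which is Gzmb. Of the 4 that were tested, 2 rose and 0 fell. Gzma, a granule protease, rose from 0.257 to 5.65 FPKM, and Cd69, an activation marker, rose from 0.0309 to 4.51 FPKM. Nkg7, tested and not called, had 0.380 and 0.158 FPKM, and Cd3d, not tested, had 0.0594 and 0.0263. The part of such cells in the value beside Adam6a was not tested. In these bulk samples, more cells of a type and more RNA per cell cannot be told apart.

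Each member was set beside the named locus of highest mean FPKM in its interval, here called its partner. Of the 48 tested members, 3 were called together with their partner in the same direction, and 0 in opposite directions. In 2 only the unnamed locus was called, in 14 only the partner, and in 25 neither, while 4 had a partner that was not tested or failed. The 3 that rose with their partner are those in the Kcna3, E330033B04Rik and zinc finger intervals. Members that share an interval share a partner, so these pairs are not independent.

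In the 35 pairs with a mean of at least 0.5 FPKM in both loci, which have 27 different partners, the log2 ratio of Nd1 to control was compared on the scale log2(FPKM + 1). The unnamed locus minus its partner gave a median of 0.12, with quartiles of -0.09 and 0.34, and 26 of the 35 lay within 0.5 of each other. Over all tested loci above 0 in both groups, the log2 ratio without the added 1 had quartiles of -0.31 and 0.20. How many pairs of loci from different intervals would lie within 0.5 was not computed. The differences ran from -0.99, in the interval of Snrpn and Snurf, to 2.45, in a chemokine interval of chromosome 4. The member at 2.45 was listed at 0 in control, as were those next below it, at 1.83 and 1.41. The members at 2.45 and 1.83 did not pass the authors' test (Cuffdiff q = 0.461 and q = 0.502), and that at 1.41, beside Adam6a, rose. No spread between libraries is known, so how far a pair would differ by chance cannot be read from the table.

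**Figure D4:**
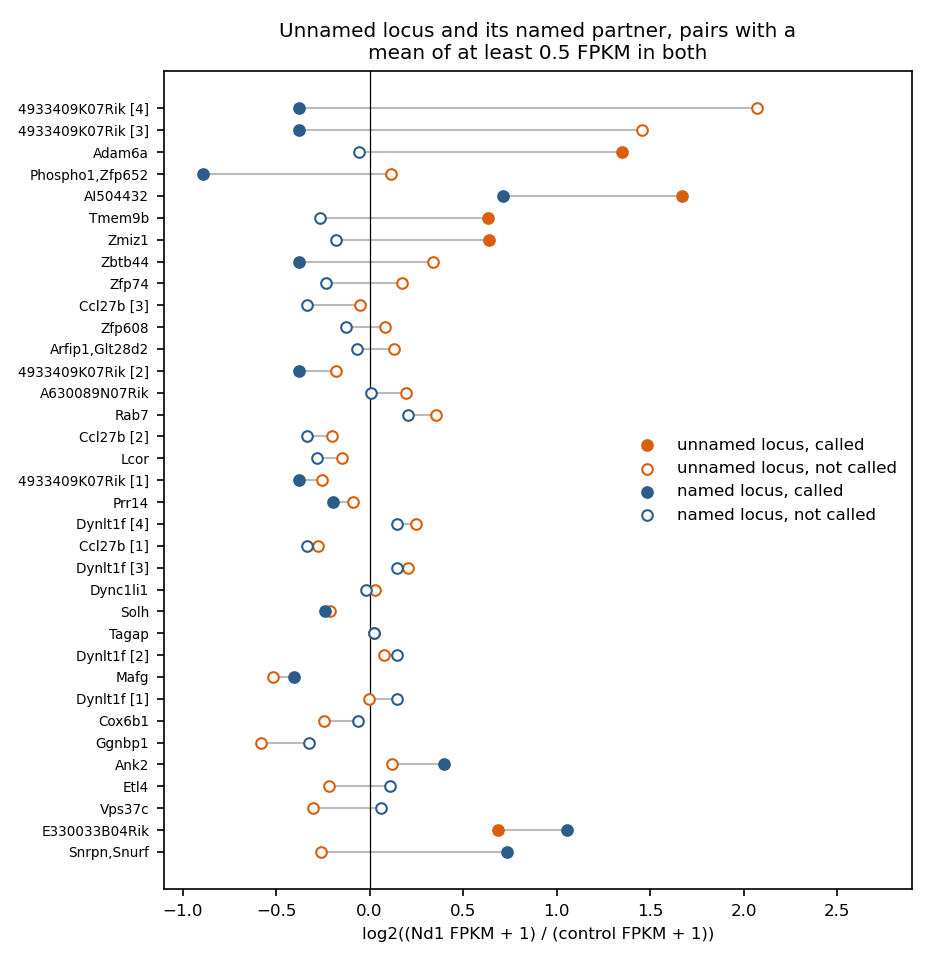
Change from control to Nd1, as log2((Nd1 FPKM + 1) / (control FPKM + 1)), of the unnamed locus (orange) and its partner (blue) in 35 pairs, sorted by their difference; filled points were called, open points were not, and numbers in brackets tell members with the same partner apart. In 26 of 35 pairs the points lie within 0.5 of each other. The ends of the plot hold the chemokine interval at the top, with an unnamed locus listed at 0 in control, and Snrpn,Snurf at the bottom.

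The lowest difference was at Snrpn and Snurf, which share a transcript that is made only from the paternal chromosome, in an imprinted region that also holds clusters of small nucleolar RNAs. The interval is chr7:67127388-67595063 (mm9). Snrpn,Snurf rose from 9.70 to 16.8 FPKM (Cuffdiff q = 4.78e-05), while the unnamed locus had 24.4 FPKM in control and 20.2 in Nd1 and did not pass the test (q = 0.410). In control the unnamed locus was the higher of the pair by a wide margin, and in Nd1 the values were much closer.

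In the interval of Phospho1,Zfp652 (chr11:95574322-95707045, mm9), the unnamed locus had 22.1 and 24.1 FPKM and did not pass the test (Cuffdiff q = 0.585). Phospho1,Zfp652, which joins a phosphatase of bone mineralisation and a zinc finger repressor, fell from 84.7 to 45.1 FPKM (q listed as 0). Abi3, an adaptor of actin regulation in the same interval, fell from 5.68 to 2.35 FPKM (q = 2.71e-07). Both tested named loci of the interval thus fell, and the unnamed locus had the higher value in Nd1.

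Ank2, an ankyrin that anchors membrane proteins to the cytoskeleton, rose from 122 to 161 FPKM (Cuffdiff q = 4.69e-06). The unnamed locus beside it (chr3:126624525-127202033, mm9) had 2.08 and 2.34 FPKM, or 1.56% of the level of Ank2 over both groups, and did not pass (q = 0.723). Prr14, a protein that tethers heterochromatin to the nuclear lamina, fell from 40.3 to 35.1 FPKM (q = 0.00234). Its unnamed neighbour, in an interval of 24 named loci, had 8.30 and 7.73 FPKM and did not pass (q = 0.803).

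At Mafg and Solh the partner fell, and the unnamed locus had a similar ratio but did not pass. Mafg, a small Maf transcription factor, fell from 31.6 to 23.6 FPKM (Cuffdiff q = 0.0132), and the unnamed locus of its interval (chr11:120487282-120489496, mm9) had 25.9 and 17.8 FPKM (q = 0.201). Solh, a calpain-like protease, fell from 16.4 to 13.8 FPKM (q = 0.0185), and the unnamed locus (chr17:26095312-26122651, mm9) had 15.6 and 13.4 FPKM (q = 0.622). The log2 fold changes were -0.54 beside -0.42 for Mafg and -0.22 beside -0.26 for Solh.

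Among the 10 members of highest mean level, the first was the locus in the Rab7 interval (chr6:87949134-87949930, mm9). Rab7 is the small GTPase of late endosomes, and it had 27.1 FPKM in control and 31.3 in Nd1, against 30.0 and 38.7 for the unnamed locus. Neither passed the test (Cuffdiff q = 0.593 and q = 0.135). The unnamed locus beside Dync1li1, a light intermediate chain of the motor dynein (chr9:114597949-114633433, mm9), had 17.1 and 17.5 FPKM, and Dync1li1 had 48.5 and 47.9. The unnamed locus beside Lcor, a nuclear receptor corepressor, had 9.70 and 8.64 FPKM, close to the 10.8 and 8.76 of Lcor. In the last 2 pairs no locus was called. The Dync1li1 pair had similar values in both groups. Both loci of the Lcor pair had the lower value in Nd1 (Cuffdiff q = 0.124 for Lcor and q = 0.736 for the unnamed locus).

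Dynein also supplied the interval of Dynlt1a, Dynlt1b and Dynlt1f, near-identical genes for a light chain (chr17:6306340-6655064, mm9). Its 4 unnamed loci were all tested and none was called. They had 12.7, 9.71, 7.30 and 5.91 FPKM in control and 14.8, 10.3, 7.27 and 7.20 in Nd1. The highest row of Dynlt1f had 103 and 114 FPKM and did not pass (Cuffdiff q = 0.358). How fragments were divided among these copies is uncertain.

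The unnamed locus was the higher of the pair in 8 of the 128 pairs with a mean of at least 0.5 FPKM in one of them (6.25%). These pairs are not independent. The 60 members of both chemokine intervals of chromosome 4 all count among the 128, and only 10 of these members were above 0. The partner is by construction the highest named locus of its interval. Against the lowest one, 55 pairs reached a mean of at least 0.5 FPKM in one of them, and the unnamed locus was the higher in 23 (41.8%). Members at 0 beside a low named locus drop out of the 55. The filter thus passes such intervals through the level of the unnamed locus itself, and the shares cannot be compared directly. The strongest contrast lay beside Fhl2, a LIM-domain protein of muscle and stress fibres (chr1:43179919-43253606, mm9), where the unnamed locus had 13.8 and 14.3 FPKM and Fhl2 was not tested, at 0.0648 and 0.0203 FPKM. The unnamed locus beside Entpd1, the ectonucleotidase CD39, had 1.32 and 1.64 FPKM, and Entpd1 was not tested, at 0.134 and 0.0736. In these intervals nearly all of the listed FPKM stood on the unnamed row.

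In 30 intervals a single unnamed locus stood with a single named one, and both were tested in 17 of them. There the unnamed locus ranged from 1.45% of the level of its partner, beside Aph1b,Aph1c, to 201%, beside A630089N07Rik, with a median of 35.3%, and 4 were under 10%. In these 17 pairs the partner was called in 5 and the unnamed locus in 1, that beside Tmem9b. Aph1b,Aph1c, subunits of gamma-secretase, rose from 31.5 to 37.2 FPKM (Cuffdiff q = 0.00841), and the unnamed locus had 0.402 and 0.596 FPKM (q = 0.672).

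Both chemokine intervals of chromosome 4 together held 60 members and 47 named loci. Ccl19 and Ccl27 are chemokines of lymphoid tissue and skin, and Il11ra1 is a receptor chain for interleukin 11. Of the 60 members, 10 were above 0 and 9 were tested, and 0 were called. The value was lower in Nd1 in 6 of the 9, while the other 3 were listed at 0 in control and at 3.20, 1.74 and 0.929 FPKM in Nd1. Of the named loci, 14 were tested, 5 fell and 0 rose. The locus listed as 4933409K07Rik,Ccl27a fell from 29.9 to 22.8 FPKM (Cuffdiff q = 0.0222), and Il11ra1 fell from 3.20 to 2.14 FPKM (q = 0.00818). A value of 3.20 FPKM against 0 did not pass the authors' test (q = 0.461).

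Of the 23444 named loci in the table, the 301 that share an interval with a member are 1.28%, a rough background for each gene list. This share counts rows, while the lists count symbols. H2-Q6 and H2-Q7 stand on 1 row, as do Snrpn and Snurf, so the shares are not in the same unit. Of the antigen presentation list, 14 were tested, 12 rose and 0 fell, and H2-D1, H2-Q4, H2-Q6 and H2-Q7 stand in 1 interval with an unnamed locus (chr17:35378691-35580718, mm9). All 6 tested named loci there rose. H2-D1, a classical class I molecule that presents peptides to T cells, rose in its joint row with LOC547349 from 7.99 to 138 FPKM (q listed as 0). Ddx39b,H2-Q6,H2-Q7 rose from 151 to 188 FPKM (Cuffdiff q = 0.00609). That row also counts Ddx39b, so its rise cannot be assigned to H2-Q6 or H2-Q7. The unnamed locus was listed at 0 in control and at 0.357 FPKM in Nd1 and did not pass (q = 0.264). These genes are similar in sequence, and the division of fragments among them is uncertain.

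Of the imprinted genes, 25 were tested, 7 rose and 5 fell, and Dio3, Snrpn and Snurf share an interval with a member. Dio3, which inactivates thyroid hormone, fell from 0.642 to 0.0392 FPKM (Cuffdiff q = 0.000653), and the unnamed locus there was listed at 0 in both groups. Of the 42 tested genes of the interferon-stimulated list, 40 rose and 1 fell. None of the 48 symbols of that list shares an interval with a member, nor do the 1109 odorant receptor loci. Genes outside the list are not covered by this count, such as Uba7, whose row Ip6k1,Uba7 does share an interval with a member. The lists were chosen with results of these data known.

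Some untested members lie beside named loci that changed, and these were chosen after their values were seen. Cxxc4, a CXXC-domain inhibitor of Wnt signalling, rose from 3.94 to 16.0 FPKM (q listed as 0), and Mir1895 in the same interval rose from 0.178 to 0.549 FPKM (Cuffdiff q = 0.00047). The unnamed locus beside them had 0.120 and 0.183 FPKM. The row of Mir1895 counts fragments of polyadenylated RNA and is not a measure of the mature microRNA, whose sequence in RefSeq (GRCm38.p6) follows with its seed, bases 2 to 8, in capitals.
mmu-miR-1895: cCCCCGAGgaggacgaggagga
The 2 members with the lower value in Nd1 at an unadjusted p under 0.05 were likewise outside the rule for naming. That beside Ggnbp1 had 1.03 and 0.363 FPKM (Cuffdiff q = 0.0891), and that beside 1700030C10Rik had 1.20 and 0.537 FPKM (q = 0.0643). Neither fell by the threshold used.

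The sorted cells carried the markers of their label. The 10 markers of mature olfactory sensory neurons summed to 13723 FPKM in control and 5599 in Nd1, and the 9 that were tested all fell. Omp had 4087 and 605 FPKM, Cnga2 860 and 486, Adcy3 888 and 496, and Gnal, whose test failed, 1672 and 924. Markers of immature neurons summed to 168 and 322 FPKM, with 4 of 5 called higher. Those of sustentacular cells summed to 320 and 302, with 1 of 5 called higher. Macrophage markers summed to 0.904 and 1.20, with 1 tested and none called. Neutrophil markers summed to 29.2 and 6.37 FPKM, with 4 of 5 called lower, and basal cell markers to 12.2 and 6.04, with 3 of 3 called lower. Erythroid markers summed to 23.6 and 12.6 FPKM, with 1 of 2 called lower, and endothelial markers to 1.56 and 2.76, where Pecam1 rose and the other two were not tested. These shifts move with the groups, and their part in the changes of the unnamed loci was not tested.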

How the data were processed

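The labels' protocols describe sorting of mature olfactory sensory neurons and Illumina TruSeq libraries of polyadenylated RNA, and build mm9, Bowtie and Cuffdiff 1.3.0 come from the submitters' processing notes. No source used here states the annotation or any use of strand. Per the file headers, the authors deposited 1 FPKM value per group and locus beside their q-value, p-value, test statistic and log2 fold change. There are 0 columns with values per library, so the planned limma fit was not possible and no test was run. The replicates of a group differ in age, and the controls in genotype as well, and pooled values do not tell these apart. Depth is unknown.

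Overlaps of at least 1 base were found with pandas 2.3.3 (Python 3.11.15), tested on simulated intervals. Starts were counted from 0 and are printed with 1 added. Log2 ratios of pairs used a pseudocount of 1 FPKM, which understates changes of low loci. The partner shares the most bases, ties going to the highest mean FPKM.

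Loci were named by a rule: the largest called changes of at least 1 FPKM, the 10 highest members, discordant pairs (up to 6 each way), members beside listed genes, and the named loci with most members. Outside this rule, the members in the zinc finger interval and beside Aph1b,Aph1c and Entpd1 were described as well. The members and lists were chosen with earlier results of these data known. Coordinates of named loci bound the whole interval. GRCm38 served for promoter and microRNA sequences and for gene order only.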

Additional observations from a re-analysis of the deposited data

How the results depend on the processing

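Of 57 values under alternatives, 43 stayed within 1.5 times the count or within the spread of the value, and 14 moved. The spread used for the median difference was the standard deviation of the pair differences, 0.66. Many of the 43 could not move. All shared intervals were identical, so requiring a larger shared part repeated the main result. Choosing the partner by highest mean FPKM alone gave the same partner for all 362 members. The 43 are therefore no measure of robustness. Requiring 50% of the unnamed locus, the whole of it or a reciprocal 50% left 362 members, and counting starts from 1 gave 363. At the authors' q under 0.01, 3 members rose in place of 6, only the unnamed locus was called in 1 pair and only the partner in 8. With at least 1 FPKM in both loci, only the partner was called in 8 pairs. In 1 pair, that with Zmiz1, the test of the partner had failed. The 2 remaining alternatives were chosen after seeing the data. Leaving out the 26 intervals in which a symbol stands on several rows left 164 members, of which 2 rose. It left 1 pair called together, 1 with only the unnamed locus called, 6 with only the partner called, 15 with neither and 2 with an untested partner, and the unnamed locus was the higher in 11.4%. With the partner of the lowest mean FPKM that share was 41.8%, of 55 pairs, from which members at 0 beside a low named locus drop out. The median difference of 0.12 between the log2 ratios ranged from 0.05 to 0.12. No paired analysis was possible because the table holds 1 pooled value per group, and no replicate could be left out for the same reason. Depth is unknown, so loci listed at 0 may be below detection.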
